A study of Homo sapiens with 8 samples.

Results

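Iron uptake, storage and iron-sulfur cluster assembly were followed through 9 genes, chosen by name with earlier results of these data known. The genes are TFRC, SLC11A2, FTH1, FTL, NCOA4, IREB2, ACO1, ISCU and NFS1. They are 9 of the 61806 genes in the deposited table, and all 9 had enough reads to be tested. The libraries came from wild-type N/TERT-1 cells, a single immortalized line of human epidermal keratinocytes, grown in serum-free keratinocyte medium. In the control condition 4 cultures received ethanol, and in the O/A condition 4 received oligomycin, an inhibitor of the mitochondrial ATP synthase, together with antimycin A, an inhibitor of the cytochrome c reductase. Per the study, oligomycin was given at 10 μM and antimycin A at 4 μM for 4 hours, and each condition came from independent experiments. Both conditions shared the genotype, so treatment was the only labelled difference.

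Cells take up most of their iron bound to transferrin, through transferrin receptor 1, and a divalent metal transporter then moves it out of the endosome into the cytosol. Iron that is not used at once is kept in the ferritin shell, and much of the rest is built into heme and iron-sulfur clusters inside mitochondria. A pair of iron regulatory proteins binds a hairpin called the iron-responsive element when iron is scarce, which blocks translation of ferritin mRNA from its 5′ UTR and protects transferrin receptor mRNA from decay through its 3′ UTR.

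The elements are shown for TFRC and the ferritin genes, the members in which the search found a match. They were searched for in the sense strand of GENCODE release 44 transcripts on GRCh38 as an unpaired C, 5 bases, the loop CAGTGN and 5 bases, where the bases on either side of the loop had to pair, G with T allowed. The 6 matches in these 3 genes are printed as DNA, 5′ to 3′ in the direction of the mRNA, with the 6-base loop in capitals and 12 bases on each side in lower case.
FTH1, 5′ UTR, chr11:61967573-61967602, minus strand: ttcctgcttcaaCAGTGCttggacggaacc
FTL, 5′ UTR, chr19:48965335-48965364, plus strand: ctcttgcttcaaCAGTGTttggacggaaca
TFRC, 3′ UTR, match 1, chr3:196050978-196051007, minus strand: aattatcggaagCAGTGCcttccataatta
TFRC, 3′ UTR, match 2, chr3:196050574-196050603, minus strand: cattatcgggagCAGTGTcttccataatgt
TFRC, 3′ UTR, match 3, chr3:196050509-196050538, minus strand: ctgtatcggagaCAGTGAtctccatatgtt
TFRC, 3′ UTR, match 4, chr3:196050462-196050491, minus strand: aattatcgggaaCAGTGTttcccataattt

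Such a match was found in a UTR of 141 of 19701 protein-coding genes searched, or 0.716%. It was found in a 5′ UTR in 19 genes and in a 3′ UTR in 122. TFRC was the only gene with more than 2 matches, and it had 4. The match was present in 10 of 11 coding transcripts of TFRC, 7 of 8 of FTH1 and the 1 of FTL. The 17 coding transcripts of SLC11A2 held none in this form, which says only that these letters are not in those UTRs. Neither did those of NCOA4, IREB2, ACO1, ISCU and NFS1. A match is a description of the letters and not a measurement of binding.

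The libraries held between 17210404 and 20999927 counted reads each, with the ethanol libraries at 17210404 to 20999927 and the O/A libraries at 17689760 to 19263046. After genes that did not reach 10 counts in 4 or more libraries were set aside, 14893 were tested, and 5165 of them were called different, which is 34.7%. A gene was called when the adjusted p of edgeR's quasi-likelihood test was at most 0.05 and the absolute log2(FC), the log2 of the level in O/A over that in ethanol, was above 0.25. Positive calls, termed upregulated, took 15.8% and negative ones, termed downregulated, 18.9%. The labelled cell type was checked, and all 7 basal keratinocyte markers reached 1 FPKM in every library, which does not tell N/TERT-1 from another keratinocyte line. FPKM scales each count to kilobases of exon and to a fixed library total. The log2(FC) and the percent changes rest on edgeR's own library scaling, so they differ somewhat from ratios of the FPKM means. The summed level of these markers was 2890 to 3150 FPKM in ethanol and 2570 to 2730 FPKM in O/A, and the part of that difference in the results below was not tested. Markers of leukocytes and of erythroid cells, a cell type specialised in iron and heme, stayed under 1 FPKM in every library, and the 5 erythroid markers together reached 0.07 FPKM at most. Of the fibroblast markers 1 of 6 passed 1 FPKM (COL1A1, 2.38 to 2.94 FPKM over all libraries), and of the melanocyte markers 1 of 5 (MITF), with TYR and MLANA at 0.

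The mRNA levels of genes for both iron uptake and iron storage differed between O/A and ethanol. The uptake receptor TFRC and the ferritin heavy chain FTH1 were upregulated together with the cluster scaffold ISCU. The ferritin receptor NCOA4, IREB2 of the iron regulatory proteins and the cysteine desulfurase NFS1 were downregulated. Thus 6 of 9 genes were called, 3 in each direction, against 34.7% of all tested genes. The 9 were chosen with earlier results of these data known, so the shares in this paragraph are descriptions and not tests. The log2(FC) of the 9 genes ran from −0.46 to 0.71, with a median of 0.18, where the median of all tested genes was −0.00040. Without the demand on fold, 8 of 9 had an adjusted p of at most 0.05, compared with 53.7% of all tested genes. In 8 of 9 the scaled counts of the O/A libraries did not overlap those of the ethanol libraries, 5 lying above and 3 below, and this separation was found in 47.6% of all tested genes. ACO1 was the exception in both counts. These are amounts of mRNA relative to all mRNA of a culture, in which a change per cell and a change in the share of expressing cells cannot be told apart.

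**Figure D1:**
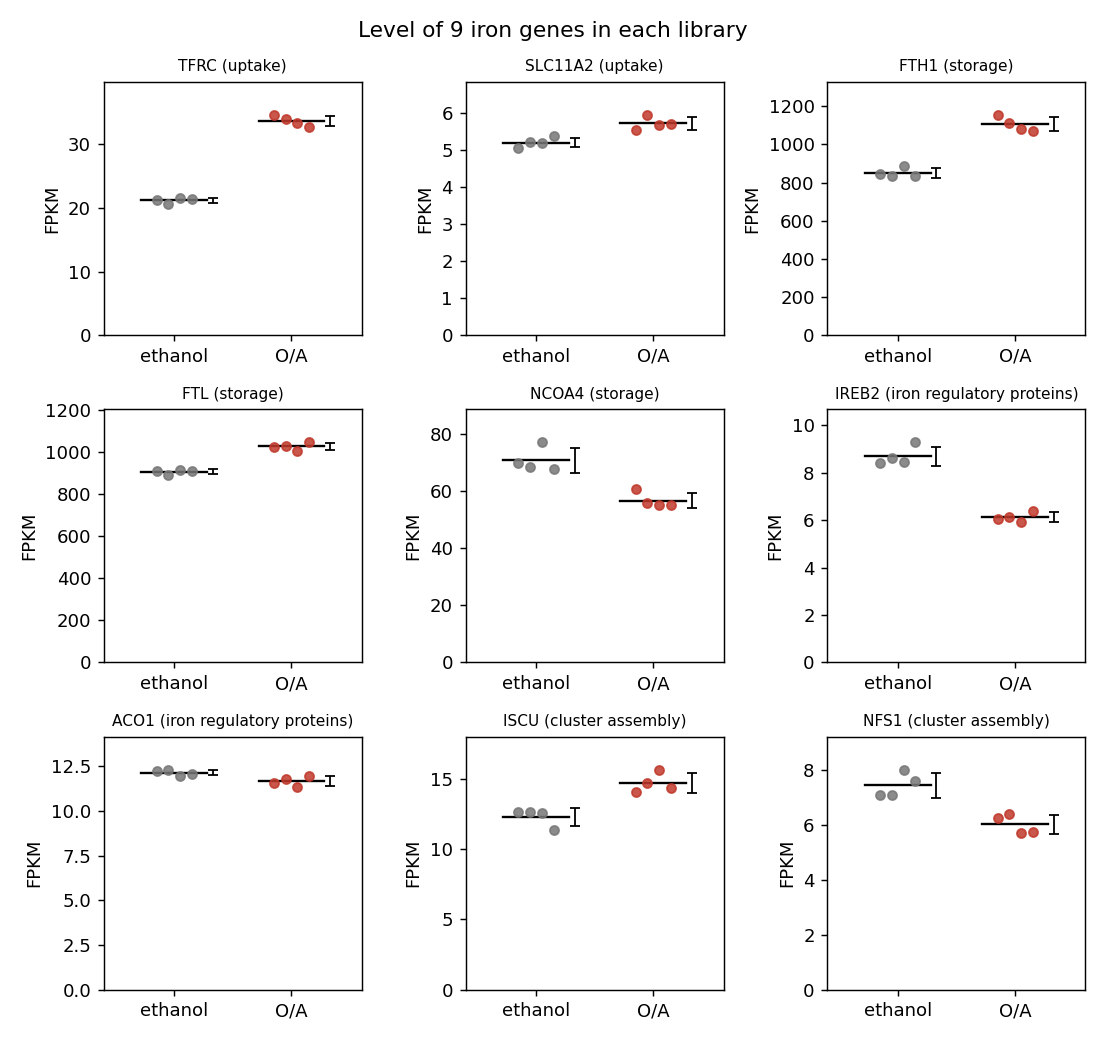
mRNA level of the 9 genes in each library, in FPKM on axes that differ between panels, with ethanol and O/A libraries as separate points and the mean ± SD (n = 4) beside them. TFRC, FTH1, FTL, SLC11A2 and ISCU lie higher in all 4 O/A libraries, NCOA4, IREB2 and NFS1 lie lower, and the ACO1 values lie within 1 FPKM of each other.

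TFRC encodes transferrin receptor 1, the main entry of transferrin-bound iron. The gene (ENSG00000072274) lies on chromosome 3 from 196012511 to 196082153. Its level was 21.16, 20.61, 21.48 and 21.29 FPKM in the ethanol libraries and 34.47, 33.91, 33.31 and 32.69 FPKM in the O/A libraries. Every O/A library lay more than 10 FPKM above every ethanol library, and within each condition the values differed by less than 2 FPKM. The mean rose from 21.1 ± 0.374 to 33.6 ± 0.767 FPKM (SD, n = 4 each), with a log2(FC) of 0.71 (SE 0.0255, 95% interval 0.66 to 0.77, edgeR adjusted p = 1.67e-29). This log2(FC) was the largest change among the 9 genes and equals an increase of 64.0% in edgeR's scaling. Of all tested genes, 5.12% had a higher log2(FC). The counts behind it were 6293 to 7770 per library in ethanol and 10070 to 11151 in O/A.

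SLC11A2, on chromosome 12 from 50979401 to 51028566 (ENSG00000110911), encodes the divalent metal transporter DMT1, which carries iron across the endosomal membrane. Its level was 5.05, 5.21, 5.19 and 5.37 FPKM with ethanol and 5.54, 5.94, 5.69 and 5.71 FPKM with O/A. The O/A libraries were all higher, by a small margin. The log2(FC) of 0.18 (SE 0.0413, 95% interval 0.10 to 0.26, edgeR adjusted p = 2.00e-04) stayed within the threshold on fold, so the gene was not called. By mean FPKM it was the least abundant of the 9 in both conditions, though in O/A its range overlapped that of NFS1. By scaled counts, which do not divide by exonic length, NFS1 was lower in every library.

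The ferritin shell is made of heavy chains, which oxidise iron, and light chains, which help to mineralise it. FTH1, the heavy chain gene (ENSG00000167996, chromosome 11 from 61959718 to 61967634), was at 845.04, 837.11, 886.90 and 834.26 FPKM in the ethanol libraries and at 1152.74, 1113.53, 1082.09 and 1073.12 FPKM in the O/A libraries. The lowest O/A value exceeded the highest ethanol value by more than 100 FPKM. The mean rose from 851 ± 24.5 to 1105 ± 36.0 FPKM (SD, n = 4 each), a log2(FC) of 0.42 (SE 0.0254, 95% interval 0.37 to 0.47, edgeR adjusted p = 3.51e-20). FTH1 took 0.167 to 0.178% of all counted reads with ethanol and 0.215 to 0.231% with O/A.

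FTL, the light chain gene (ENSG00000087086, chromosome 19 from 48965309 to 48966879), stood at 910.79, 891.50, 917.00 and 908.97 FPKM with ethanol. With O/A it stood at 1024.55, 1030.81, 1006.97 and 1046.03 FPKM. The groups did not overlap here either, but the difference was smaller than for the heavy chain. The log2(FC) was 0.22 (SE 0.0242, 95% interval 0.18 to 0.27, edgeR adjusted p = 2.28e-11), within the threshold on fold, so FTL was not called. Both ferritin genes were among the most abundant of the cell: 0.168% of tested genes had a higher FPKM than FTL in ethanol, and 0.175% a higher one than FTH1.

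The order of the ferritin genes turned over between the conditions. Within each library, the FPKM of FTH1 divided by that of FTL was 0.928, 0.939, 0.967 and 0.918 with ethanol and 1.125, 1.08, 1.075 and 1.026 with O/A. FTL was thus the higher of the pair in every ethanol library and FTH1 in every O/A library. The ratio went from 0.938 ± 0.0213 to 1.08 ± 0.0406 (SD, n = 4 each), a difference of 0.20 on the log2 scale (exact two-sided permutation test, p = 0.0286, the smallest that 4 against 4 can give, and 0.0286 after Benjamini-Hochberg adjustment over 3 ratios). Since FPKM divides by exonic length, 2004 bases for FTH1 and 871 for FTL, the value of 1 at which the order turns depends on those lengths, while the shift between conditions does not.

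Both ferritin genes have many processed copies in the genome, which can share reads with them. The 25 genes named as FTH1 pseudogenes held 1539 counts over all libraries, 0.532% of the counts of FTH1, and FTH1P2 had the most with 732. For FTL, 16 pseudogenes held 0.403%, and FTLP14 had the most with 248. Adding these reads back to the parent genes changed no call among the 9 genes. Such small shares could hardly change one, and shared reads that were counted for neither gene cannot be seen in these counts. BEST1 overlaps FTH1 on the opposite strand with 2.29% of its counts (BEST1 log2(FC) 0.53, SE 0.0813, edgeR adjusted p = 1.94e-04). Whether reads were counted by strand is not given in the sources used here.

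NCOA4 encodes the receptor that carries ferritin to the lysosome, where its iron is released. Its level was 69.72, 68.45, 76.94 and 67.60 FPKM in ethanol and 60.58, 55.72, 55.02 and 55.14 FPKM in O/A (ENSG00000266412, chromosome 10 from 46005088 to 46030623). All O/A libraries lay below all ethanol libraries, and ethanol replicate 3 and O/A replicate 1 stood above the rest of their groups. The mean fell from 70.7 ± 4.26 to 56.6 ± 2.66 FPKM (SD, n = 4 each), with a log2(FC) of −0.27 (SE 0.0374, 95% interval −0.35 to −0.20, edgeR adjusted p = 2.63e-06). Without ethanol replicate 3 the log2(FC) was −0.23, within the threshold on fold, so the call rested on that library.

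IREB2 and ACO1 encode the iron regulatory proteins 2 and 1, which bind the hairpins printed above. IREB2 (ENSG00000136381, chromosome 15 from 78437431 to 78501453) was at 8.40, 8.61, 8.46 and 9.27 FPKM in ethanol and at 6.03, 6.15, 5.91 and 6.39 FPKM in O/A. Every O/A library was below every ethanol library. The log2(FC) was −0.46 (SE 0.0380, 95% interval −0.54 to −0.39, edgeR adjusted p = 4.08e-15), a decrease by 27.4% and the strongest fall among the 9 genes. Of all tested genes, 11.9% had a lower log2(FC).

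ACO1, whose protein is a cytosolic aconitase when it holds an iron-sulfur cluster and binds RNA when it does not, behaved otherwise. Its level was 12.21, 12.31, 11.98 and 12.08 FPKM in ethanol and 11.58, 11.81, 11.35 and 11.95 FPKM in O/A (ENSG00000122729, chromosome 9 from 32384603 to 32454769). The FPKM ranges were narrowly apart, whereas the counts scaled by TMM, the library scaling of edgeR, overlapped. The log2(FC) was −0.01 (SE 0.0340, edgeR adjusted p = 0.795), and its 95% interval from −0.08 to 0.06 bounds the change. The ratio of IREB2 to ACO1 was 0.688, 0.699, 0.706 and 0.767 in the ethanol libraries and 0.521, 0.521, 0.521 and 0.535 in the O/A libraries. It went from 0.715 ± 0.0356 to 0.524 ± 0.00700 (SD, n = 4 each), a log2 difference of −0.45 (exact two-sided permutation test, p = 0.0286, adjusted 0.0286). The mRNAs of the 2 regulatory proteins therefore moved unequally. With ACO1 nearly level, the ratio largely repeats the fall of IREB2 and is not separate support for it.

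**Figure D2:**
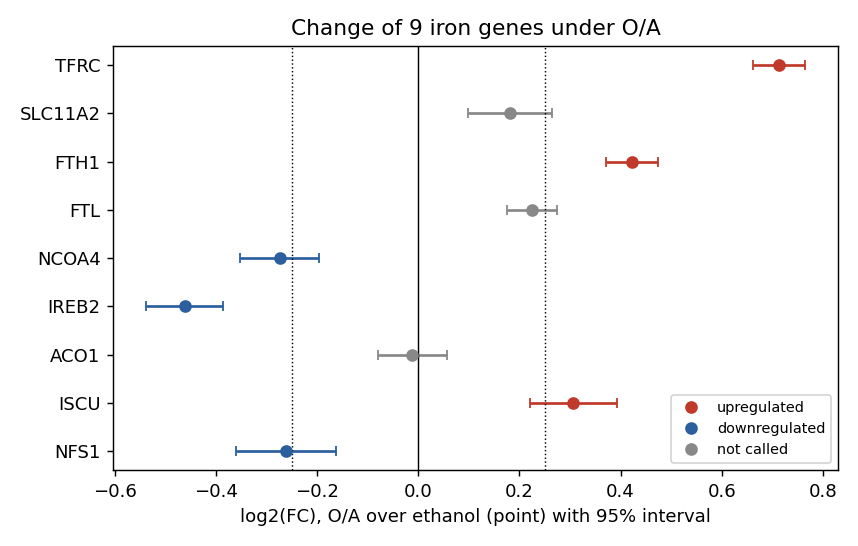
log2(FC), O/A over ethanol, of the 9 genes with 95% intervals (n = 4 libraries each), with dotted lines at the threshold of 0.25 in either direction. TFRC stands highest at 0.71 and IREB2 lowest at −0.46, and ACO1 is at −0.01.

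Iron-sulfur clusters are first put together in mitochondria on the scaffold protein ISCU, with sulfur that the desulfurase NFS1 takes from cysteine. ISCU (ENSG00000136003, chromosome 12 from 108562582 to 108569368) was at 12.63, 12.63, 12.60 and 11.34 FPKM in ethanol and at 14.10, 14.73, 15.66 and 14.35 FPKM in O/A. All O/A libraries were higher, and ethanol replicate 4 was the lowest of its group. The mean rose from 12.3 ± 0.640 to 14.7 ± 0.684 FPKM (SD, n = 4 each), with a log2(FC) of 0.31 (SE 0.0429, 95% interval 0.22 to 0.39, edgeR adjusted p = 2.34e-08). On log2(FPKM + 1) with limma it was 0.24, within the threshold.

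NFS1 moved the other way (ENSG00000244005, chromosome 20 from 35668052 to 35699355). Its level was 7.09, 7.11, 8.03 and 7.61 FPKM in ethanol and 6.25, 6.42, 5.71 and 5.74 FPKM in O/A, with no overlap. The mean fell from 7.46 ± 0.450 to 6.03 ± 0.359 FPKM (SD, n = 4 each), a log2(FC) of −0.26 (SE 0.0494, 95% interval −0.36 to −0.16, edgeR adjusted p = 1.17e-05). This lay at the edge of the threshold, and the call was lost without ethanol replicate 3 (−0.22), ethanol replicate 4 (−0.24), O/A replicate 3 (−0.23) or O/A replicate 4 (−0.24). NFS1 overlaps ROMO1 on the opposite strand only at its edge, since ROMO1 runs from 35699272 to 35700984 and NFS1 stops at 35699355. The counts of ROMO1 over its whole length came to 98.7% of those of NFS1. ROMO1 itself was not called (log2(FC) 0.08, SE 0.0463, edgeR adjusted p = 0.120). The part of shared reads in the NFS1 value was not tested.

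The scaffold and the desulfurase thus drew apart. The ratio of ISCU to NFS1 was 1.781, 1.776, 1.569 and 1.49 in the ethanol libraries and 2.256, 2.294, 2.743 and 2.5 in the O/A libraries. It went from 1.65 ± 0.147 to 2.45 ± 0.224 (SD, n = 4 each), a log2 difference of 0.57 (exact two-sided permutation test, p = 0.0286, adjusted 0.0286). It was the largest of the 3 ratio differences in absolute value. Every O/A library lay above every ethanol library for ISCU and below for NFS1, so this ratio had to separate. Its p therefore adds no support beyond the values of the 2 genes.

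**Figure D3:**
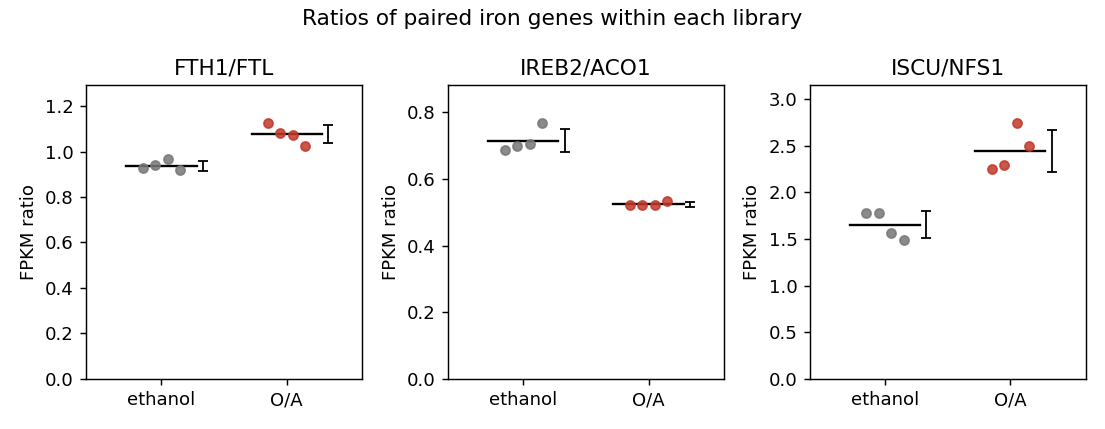
Ratios of FPKM within each library for FTH1 over FTL, IREB2 over ACO1 and ISCU over NFS1, with ethanol and O/A libraries as points and the mean ± SD (n = 4). The groups do not overlap in any of the 3 ratios, and FTH1 over FTL and ISCU over NFS1 are higher in O/A while IREB2 over ACO1 is lower.

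By level per exonic kilobase, the order in ethanol was FTL, FTH1, NCOA4, TFRC, ISCU, ACO1, IREB2, NFS1 and SLC11A2. ISCU and ACO1 had overlapping ranges, and all other neighbours in this order were apart. In O/A the ferritin genes changed places, ISCU stood clear of ACO1, and the ranges of IREB2 and NFS1 and of NFS1 and SLC11A2 overlapped.

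Around these 9 genes, 78 further genes of iron and heme handling were listed, of which 66 were tested. Of the 66, 20 were called (30.3%), 10 upregulated and 10 downregulated, near the 34.7% of all tested genes. Their median log2(FC) was 0.0054.

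Among genes of iron uptake and endosomal reduction, 3 of 10 tested were upregulated and 1 was downregulated. Calls thus took 40%, near the 34.7% of all tested genes. SLC39A14, a metal transporter that takes up iron not bound to transferrin, rose from 23.5 to 38.5 FPKM (log2(FC) 0.76, SE 0.0274, edgeR adjusted p = 3.33e-29), the largest change of the 66 genes. The other calls in this group were STEAP4, a metalloreductase, with a log2(FC) of 0.57, LCN2, a carrier of iron-binding siderophores, with 0.52, and STEAP2, also a metalloreductase, with −0.26. STEAP2 was the only one of the 4 whose scaled libraries overlapped, and its call was lost with DESeq2 (−0.25, just within the threshold), with limma on log2(FPKM + 1) (−0.17) and without ethanol replicate 4, O/A replicate 1 or O/A replicate 2. That of STEAP4, a gene of low level, was also lost with limma on log2(FPKM + 1) (0.23). The transferrin receptor 2 gene TFR2 reached 13 counts in its highest library, TF reached 4 and SLC22A17 reached 6, so none of them was tested.

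None of the 6 tested genes of storage, iron chaperones and iron sensing was called by edgeR, against 34.7% of all tested genes. FBXL5, part of the ligase that degrades iron regulatory protein 2, had a log2(FC) of 0.03 (edgeR adjusted p = 0.450). The iron chaperone genes PCBP1 and PCBP2 had −0.17 and 0.22, within the threshold on fold, at edgeR adjusted p of 6.87e-07 and 7.83e-09. The mitochondrial ferritin gene FTMT had 0 counts in all libraries, which allows up to 3 counts per library, and PCBP3 reached 4. For iron export only HEPHL1, a ferroxidase gene, was tested, and it was upregulated with a log2(FC) of 0.26, a call lost with upper-quartile scaling (0.23) and with limma on log2(FPKM + 1) (0.20) and log2(FPKM + 0.1) (0.21). The exporter gene SLC40A1 reached 3 counts, HAMP 1, CP 2 and HEPH 0.

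In the mitochondrial group of iron import and cluster assembly all 19 genes were tested, and 1 was upregulated and 3 were downregulated. Calls thus took 21.1%, against 34.7% of all tested genes. HSPA9, the mitochondrial chaperone that helps to pass clusters on from ISCU, rose from 47.0 to 64.6 FPKM (log2(FC) 0.50, edgeR adjusted p = 1.70e-23). ISCA2 and IBA57, which act together in making the 4Fe-4S type of cluster, fell by 0.40 and 0.32 on the log2 scale, and the mitochondrial iron importer SLC25A37 also fell by 0.32. On log2(FPKM + 1) with limma, IBA57 had −0.18 and lost its call. LYRM4, whose protein binds NFS1, was not called, with a log2(FC) of 0.04. The same held for FDX1, a mitochondrial ferredoxin gene, at 0.25, within the threshold at an edgeR adjusted p of 1.41e-04.

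Of the 13 tested genes of cytosolic assembly and cluster transfer, 2 were upregulated and 2 were downregulated. Calls thus took 30.8%, near the 34.7% of all tested genes. CIAO2B, of the complex that targets clusters to cytosolic and nuclear proteins, had a log2(FC) of 0.38, and CISD2, a cluster protein of the endoplasmic reticulum, 0.29. CIAO3 and NDOR1 had −0.28 and −0.26. The call of CISD2 was lost with limma on log2(FPKM + 1) (0.21) and log2(FPKM + 0.1) (0.24). The call of CIAO3 was lost without ethanol replicate 4 and that of NDOR1 without ethanol replicate 2, ethanol replicate 4 or O/A replicate 1, and both with limma on log2(FPKM + 1) (−0.23 and −0.22). BOLA2 and BOLA2B are near-identical copies whose reads are uncertain, and neither passed 6 counts.

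Of the 17 tested genes of heme synthesis, transport and breakdown, 3 were upregulated and 4 downregulated. Calls thus took 41.2%, near the 34.7% of all tested genes. HMOX1, the inducible heme oxygenase that frees iron from heme, rose from 3.15 to 4.70 FPKM (log2(FC) 0.62, edgeR adjusted p = 2.72e-07), whereas HMOX2, the constitutive one, fell from 35.3 to 26.5 FPKM (log2(FC) −0.37, edgeR adjusted p = 1.84e-13). The heme transporter gene SLC48A1 had a log2(FC) of 0.38 and ALAS1, the first step of heme synthesis outside erythroid cells, 0.28. ALAS1 lost its call with upper-quartile scaling (0.24) and with limma on log2(FPKM + 1) (0.22) and log2(FPKM + 0.1) (0.23), and SLC48A1 with limma on log2(FPKM + 1) (0.24). FLVCR1, known as a heme exporter, had −0.54, the lowest of the 66 genes, and the synthesis genes CPOX and ALAD had −0.42 and −0.26. The value of ALAD lay at the edge of the threshold, and its call was not followed singly through the alternative fits. It was lost with limma on log2(FPKM + 1), where the 10 genes called were all others. ALAD, like FBXL5, PCBP1, PCBP2, LYRM4 and FDX1 above, lay outside the rule for named genes and was chosen after its values were seen. The erythroid synthase gene ALAS2 had 0 counts in every library.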

How the data were processed

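The deposited counts were made by the authors from paired-end mRNA-seq reads of 150 bases, aligned to GRCh38.p13 with HISAT2 2.0.1 and counted per Ensembl gene with HTSeq 0.6.1, per the labels and the paper. Counts were not normalized. The deposited FPKM values were within 0.005 of the count divided by exonic length and library total, in the units of FPKM. A deposited table of the authors' DESeq2 comparison holds log2 fold changes, p-values and adjusted p-values and was not used. Conditions and replicate numbers came from the sample titles. Doses and time came from the paper.

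Counts were tested in R 4.3.3 with edgeR 4.0.16 (TMM scaling, robust quasi-likelihood test, at least 10 counts in at least 4 libraries), with Benjamini-Hochberg adjustment over 14893 genes. The median log2(FC) of these was −0.00040. Standard errors were derived from the F statistics. Ratios of FPKM were compared by exact permutation tests on log2 ratios. Alternatives were DESeq2 1.42.0, limma 3.58.1 on log2(FPKM + 1) and log2(FPKM + 0.1), other scalings, no filter, a replicate block, pseudogene reads added to their parents, other fold thresholds and leaving out each library. The fits were tested on simulated data. UTRs were taken from GENCODE release 44.

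The members and lists were chosen with earlier results of these data known. Named genes are all 9 members, up to 3 called genes in each direction per list of other iron genes, listed genes too low to test, and the pseudogene of each member with most counts. ALAD, FBXL5, PCBP1, PCBP2, LYRM4, FDX1 and the overlapping genes BEST1 and ROMO1 lie outside this rule and were chosen after their values were seen. Replicates are labelled as biological. Whether they were handled in batches is not given in the sources used here, and p-values measure the spread between these cultures.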

Additional observations from a re-analysis of the deposited data

Results flagged for a closer look

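In 7 of 62 groups of 4 libraries, 1 library stood farther from the other 3 than the 95% critical value of Dixon's test allows, where chance gives about 1 in 20 groups. Among the 9 iron genes, in TMM-scaled CPM, TFRC in ethanol replicate 2 was at 353 against 364 to 366 in the other ethanol libraries, NCOA4 in O/A replicate 1 at 246 against 224 to 225, and ISCU in ethanol replicate 4 at 49.5 against 54.6 to 55.3. Among the other genes, ISCA2 in ethanol replicate 1 was at 16.1 against 16.5 to 16.6, NDOR1 in O/A replicate 1 at 10.6 against 12.9 to 13.3, and CPOX in O/A replicate 4 at 38.2 against 40.9 to 41.2. The ratio of IREB2 to ACO1 was 0.535 in O/A replicate 4 and 0.521 in each of the other O/A libraries. The cause of these gaps was not tested.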

How the results depend on the processing

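TFRC, FTH1 and IREB2 kept their calls in 16 of 16 alternative fits, with log2(FC) of 0.64 to 0.73, 0.38 to 0.45 and −0.50 to −0.42. FTL (0.18 to 0.24) and SLC11A2 (0.11 to 0.20) were called in none of them. NCOA4, ISCU and NFS1 each lost the call in some, as given with their values. ACO1 ran from −0.022 to 0.0063 when single libraries were left out, positive only without O/A replicate 3 (0.0063, edgeR adjusted p = 0.905). Without each library in turn, 4 to 6 of the 9 genes and 16 to 22 of the other iron genes were called. In these fits 4945 to 5071 of all genes were called, with 14689 to 14767 tested. The log2 difference of the FTH1 over FTL ratio ran from 0.18 to 0.22 when single libraries were left out. It ran from −0.47 to −0.41 for IREB2 over ACO1 and from 0.51 to 0.60 for ISCU over NFS1. Of the 66 other iron genes, 10 (15.2%) were called with limma on log2(FPKM + 1), against 26.3% of all tested genes, and 40 (60.6%) with no threshold on fold, against 53.7%. Above an absolute log2(FC) of 1, 0 of the 9 and 0 of the other iron genes were called by edgeR, also at an unadjusted p of at most 0.05 and by DESeq2, and the largest absolute log2(FC) was 0.71 and 0.76. The share of all tested genes called above that threshold is not given here. Of the 19 named other genes, 10 kept their call in all 16 alternatives and 9 (STEAP4, STEAP2, HEPHL1, IBA57, CISD2, CIAO3, NDOR1, SLC48A1 and ALAS1) lost it with limma on log2(FPKM + 1), some of them also elsewhere, and 0 reversed.

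Libraries with the same replicate number did not deviate together (correlations −0.0362 to 0.0704 over 13416 genes), so the numbers were not taken as pairs. With the replicate number as a block, 6 of the 9 genes and 20 of the other iron genes were called, the same numbers as without it. Of all 14893 tested genes, 5160 were called in that fit. Low counts, such as the 123 to 229 per library of HMOX1, limit the precision of the less abundant genes.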
